A study of Mus musculus with 8 samples.

Results

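Adventitial fibroblasts are the connective-tissue cells of the outer coat of an artery, and 32 genes that mark them or that they secrete were followed here through the thoracic aorta of mice that lack Fto. The genes were chosen by name and matched to probes through the RefSeq transcript of each probe, and all 32 of the 32 were found among the 21368 named genes of the array, on 43 probes. Where a gene had several probes, the one of highest mean signal over the 8 arrays stood for it. The rule uses names and mean signal, and no difference between the genotypes. The choice of the genes, however, was made with earlier results of these data known.

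RNA came from whole thoracic aorta of Fto -/- and Fto +/+ mice of C57BL6J/NMRI background, labelled male. There were 4 samples of each genotype, with 1 single-colour array for each sample. The title and genotype fields of a sample set its group, while its free-text description names the opposite genotype. Age, the deleted part of Fto and whether each sample was a separate animal are not given in the sources used here, and the p-values refer to the spread among these samples, which may be technical. Fto encodes an RNA demethylase that acts on methylated adenosine, and the comparison asks how its loss alters gene expression in the vessel.

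Fibroblasts of the adventitia carry the platelet-derived growth factor receptor PDGFR-alpha and the surface proteins CD34 and Sca-1. They build the loose collagen sheath of the artery, with small proteoglycans, fibulins and collagen-processing factors, and they secrete complement and protease inhibitors. A Pi16 and Dpp4 positive population is known in mouse as a reservoir from which more specialised fibroblasts arise, whereas Fap, Postn and Tnc are known for their rise in activated fibroblasts. Smooth muscle of the media also makes some of these products, Fn1 and Sparc among them, and macrophages and lymphocytes also express S100a4. In a whole-vessel sample, fewer fibroblasts and less RNA in each fibroblast cannot be told apart.

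Signal of the aorta was measured for 31 of the 32 genes. Of these, 30 were well above background on all 8 arrays, and Dpp4 on all 4 Fto -/- and 3 of the 4 Fto +/+ arrays. Tcf21, a transcription factor of mesenchymal cells, stayed within background on all 8 arrays and was not tested. A gene entered the test where its probe was well above background on at least 4 arrays, whatever the genotype. Every level below is the log2 of the processed intensity relative to the 75th percentile of its array, and a level is not compared between genes.

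Fto itself fell to -2.53, -2.19, -2.56 and -2.77 in the Fto -/- samples, against 0.60, 0.85, 0.47 and 0.35 in the Fto +/+ samples, a log2 difference of -3.08 (SE 0.15, limma adjusted p = 0.000403; exact two-sided permutation p = 0.0286, the smallest that 4 against 4 can give). The order of the Fto level follows the title and genotype fields. Probes well above background made up 45.6% to 47.8% of an Fto -/- array and 44.5% to 45.2% of an Fto +/+ array. Although all samples are labelled male, Xist was well above background on all 8 arrays and the Y-linked Ddx3y, Kdm5d, Eif2s3y and Zfy1 were on 0, while a probe of the Y-linked Uty was on 1. Rag1, a gene of developing T cells, was well above background by its brighter probe on 4 arrays, Fto -/- replicates 1, 3 and 4 and Fto +/+ replicate 2. By either of its 2 probes it was so on 5 arrays, Fto +/+ replicate 4 being the fifth, and results are also given without the 5 and without the 4.

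Of the 31 fibroblast genes tested, S100a4 rose and 30 did not pass, by limma at an adjusted p of 0.05 (Benjamini-Hochberg, 25292 probes tested). That is 3.23% of the genes, where 1.66% of all tested probes passed in either direction, 213 (0.842%) higher and 206 (0.814%) lower. With the arrays scaled over detected probes alone the split was 273 higher and 153 lower. Before adjustment, 8 of 31 (25.8%) had a p under 0.05, 7 of them higher and 1 lower in Fto -/- samples, against 19% of all tested probes, 8.72% higher and 10.3% lower. The 2 genotypes did not overlap for 4 of the 31 (12.9%), S100a4, Fbln1 and Postn higher and Fn1 lower, against 12.1% of all tested probes, 4.75% higher and 7.36% lower. The median log2 difference over the 31 genes was 0.22, beside -0.02 over all tested probes, and 25 of 31 (80.6%) had a positive difference, beside 47.5% of all tested probes. In either direction, the share of non-overlapping genes was therefore near that of the array as a whole. The list as a whole was not tested, since its genes were chosen with earlier results of these data known.

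**Figure D1:**
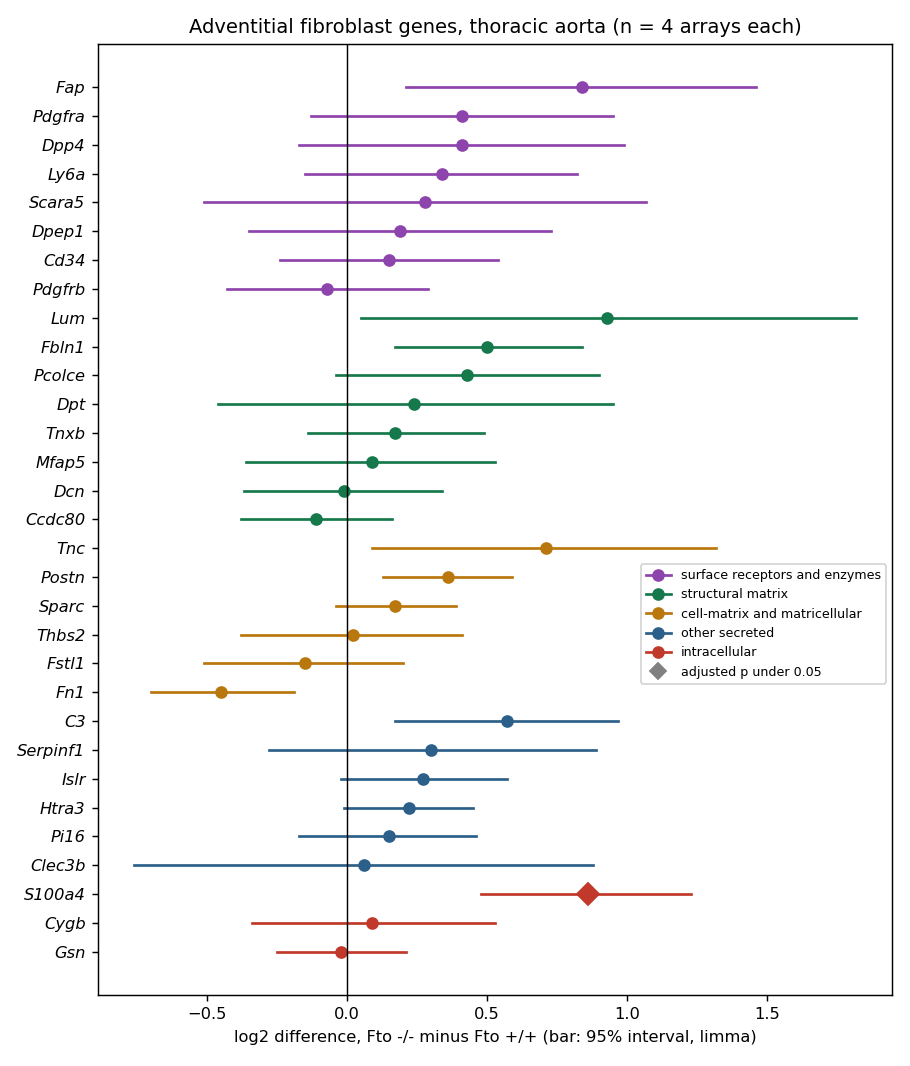
Log2 difference between Fto -/- and Fto +/+ aortas (horizontal axis) for the 31 tested fibroblast genes, grouped and coloured by role, with 95% intervals from limma (n = 4 arrays each). The diamond marks S100a4 at 0.86, the 1 gene past the threshold, and 25 of the 31 points lie right of 0.

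Promoter sequence is shown for S100a4, the gene that rose, and for Fbln1 and Postn, which were the other 2 genes higher in every Fto -/- than in every Fto +/+ sample. Each is the 250 bases before the start in RefSeq's GRCm38.p6 table, whereas the array itself is annotated on mm9. The plus strand is shown, 5′ to 3′, from chr3:90603520-90603769 for S100a4, chr15:85205758-85206007 for Fbln1 and chr3:54360857-54361106 for Postn. Fbln1 and Postn have 2 starts each in the table, of which the one further along the gene is shown, and which start was in use was not measured. Capitals mark matches to the TATA-box sequence TATAAA or the GC-box sequence GGGCGG, on either strand.
S100a4: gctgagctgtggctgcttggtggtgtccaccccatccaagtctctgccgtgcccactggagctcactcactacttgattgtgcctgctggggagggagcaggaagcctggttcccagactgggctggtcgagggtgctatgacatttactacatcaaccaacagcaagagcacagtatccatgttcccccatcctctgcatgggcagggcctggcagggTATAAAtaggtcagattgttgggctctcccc
Fbln1: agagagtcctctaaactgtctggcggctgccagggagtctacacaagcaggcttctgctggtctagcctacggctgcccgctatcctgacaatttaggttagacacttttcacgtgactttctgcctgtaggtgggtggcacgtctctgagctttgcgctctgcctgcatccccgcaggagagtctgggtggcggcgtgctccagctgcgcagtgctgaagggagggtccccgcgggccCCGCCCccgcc
Postn: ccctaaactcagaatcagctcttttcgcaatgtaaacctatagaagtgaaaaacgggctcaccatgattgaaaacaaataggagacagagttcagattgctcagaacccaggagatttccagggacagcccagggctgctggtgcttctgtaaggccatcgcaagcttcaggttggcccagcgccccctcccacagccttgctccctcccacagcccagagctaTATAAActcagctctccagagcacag
The TATAAA match begins 31 bases before the start of S100a4 and 26 before that of Postn. Fbln1 has no TATAAA in this window, and its GGGCGG match, on the minus strand, begins 11 bases before the start. The window of S100a4 holds 2 CG pairs and that of Postn 4, against 14 in that of Fbln1. Of the 32 genes, 21 have a window in the table. TATAAA was found in 5 of the 21 (23.8%), those of Dpp4, Postn, S100a4, Thbs2 and Tnc, beside 14.3% of all 27025 genes in the table. GGGCGG was found in 5 (23.8% beside 35.4%) and CCAAT in 5 (23.8% beside 37.5%), counting a gene where any of its windows holds the motif. TGANTCA, which AP-1 binds, was found in 1, that of Tnxb (4.76% beside 7.82%), and GGAATG, which TEAD factors bind, in 2 (9.52% beside 14.4%). The CArG box, which serum response factor binds, was found in 0 of the 21, beside 1.62% of all genes. All motifs were searched on both strands, and none overlaps another in the 3 windows shown.

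S100a4 encodes a calcium-binding protein of motile fibroblasts and leukocytes. Its level was 7.07, 6.60, 6.81 and 6.86 in the Fto -/- samples, against 6.02, 6.34, 5.64 and 5.90 in the Fto +/+ samples. The lowest Fto -/- sample, replicate 2, lay above the highest Fto +/+ sample, also replicate 2. The rise was 1.81-fold, a log2 difference of 0.86 (SE 0.16, limma adjusted p = 0.0453). A second probe of the same transcript differed by 0.91 (SE 0.20, adjusted p = 0.0674), also without overlap, and the mean of both probes by 0.88 (adjusted p = 0.0535). Leaving out 1 array at a time gave differences from 0.75 to 0.98, and the call was kept in 1 of the 8 fits, the one without Fto +/+ replicate 2. With slide row as a block the difference was 0.85 (adjusted p = 0.17), within row 1 it was 0.81 and within row 2 it was 0.90, with 3 Fto -/- and 1 Fto +/+ array in row 1 and 1 Fto -/- and 3 Fto +/+ arrays in row 2. Without the 5 arrays with either Rag1 probe above background, S100a4 differed by 0.77 (adjusted p = 0.242), and without the 4 with the brighter probe above background by 0.75 (adjusted p = 0.461). Both fits hold 1 Fto -/- array, replicate 2, which is assumed to vary like the Fto +/+ arrays. T cell marker genes had levels of 1.29, -1.33, 1.87 and 1.13 in the Fto -/- arrays, against -1.58, 1.68, -1.80 and -1.27 in the Fto +/+ arrays. Macrophage markers ranged from -0.34 to 0.70 in the Fto -/- arrays and from -1.09 to 0.18 in the Fto +/+ arrays. The part of leukocytes in the S100a4 values was not tested.

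The remaining tested intracellular genes, Gsn and Cygb, differed by -0.02 and 0.09. Gsn, which encodes the actin-severing protein gelsolin, averaged 8.11 ± 0.06 in Fto -/- and 8.13 ± 0.16 in Fto +/+ samples (SD, n = 4 each), with a 95% interval of the difference from -0.25 to 0.21. Its second probe differed by 0.04. Cygb encodes cytoglobin, an oxygen-binding globin of fibroblasts, and averaged 7.56 ± 0.16 in Fto -/- and 7.46 ± 0.39 in Fto +/+ samples. Its interval ran from -0.34 to 0.53. In 1 Fto +/+ array, replicate 4, Cygb reached 8.03, its highest level of the 8 arrays. Without that array the difference of Cygb was 0.28.

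Among the matricellular genes, whose products tie cells to matrix, 0 of 6 passed in limma and 3 (50%) had an unadjusted p under 0.05. Over all tested probes 1.66% passed and 19% had such a p. Fn1 encodes fibronectin, the glycoprotein on which cells assemble other matrix. Fn1 had levels of 7.14, 7.12, 6.81 and 7.15 in the Fto -/- samples, against 7.56, 7.57, 7.34 and 7.54 in the Fto +/+ samples. Every Fto -/- level lay below every Fto +/+ level, and replicate 3 was the lowest array of each genotype. The log2 difference was -0.45 (SE 0.11, adjusted p = 0.0879), between -0.50 and -0.37 when single arrays were left out.

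Postn encodes periostin, a matrix protein of activated fibroblasts and cushion tissue. Postn had levels of 5.68, 5.40, 5.31 and 5.49 in the Fto -/- samples, against 5.10, 5.06, 5.09 and 5.18 in the Fto +/+ samples. The genotypes did not overlap, and the 4 Fto +/+ samples lay within a narrow band (SD 0.05). The log2 difference was 0.36 (SE 0.10, adjusted p = 0.117), and with arrays weighted by their quality it was 0.37 (adjusted p = 0.0435). Fn1 and Postn thus differed in opposite directions, and neither passed.

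Tnc encodes tenascin-C, an anti-adhesive matrix protein. Tnc had levels of 1.18, 1.02, 0.93 and 0.64 in the Fto -/- samples, against 0.75, -0.55, 0.17 and 0.57 in the Fto +/+ samples. Fto -/- replicate 4 lay below Fto +/+ replicate 1, so the genotypes overlapped. The log2 difference was 0.71 (SE 0.27, adjusted p = 0.21), and a second, dimmer probe differed by 0.25 (adjusted p = 0.632).

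Sparc encodes osteonectin, a collagen-binding glycoprotein, and its 3 probes disagreed. The brightest, which stands for the gene, had 9.39, 9.60, 9.59 and 9.50 in the Fto -/- samples, against 9.39, 9.22, 9.33 and 9.43 in the Fto +/+ samples, a difference of 0.17 (SE 0.09, adjusted p = 0.348). Before scaling, its intensity ran from 227242 to 251280 in the Fto -/- and from 221476 to 252082 in the Fto +/+ arrays. Whether a signal so bright was compressed was not tested. The middle probe differed by 0.72 (SE 0.15, adjusted p = 0.052) without overlap between genotypes, and the dimmest by 0.07 (adjusted p = 0.774). The files assign all 3 to the same transcript and were not used to place them within it. The other matricellular genes were Fstl1, a secreted follistatin-like glycoprotein (-0.15, 95% interval -0.51 to 0.20), and Thbs2, which encodes thrombospondin-2 (0.02, -0.38 to 0.41). Both were lowest on the same Fto +/+ array, replicate 4.

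**Figure D2:**
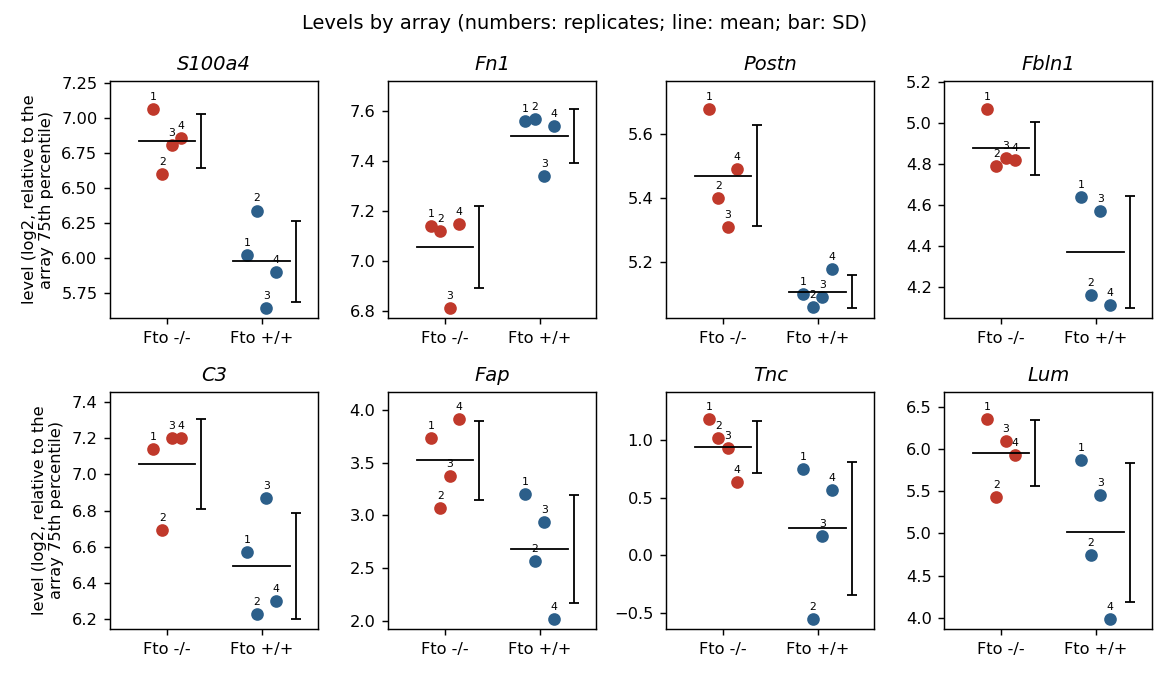
Level of the 8 fibroblast genes with an unadjusted p under 0.05 (vertical axis, log2 relative to the array's 75th percentile) in each Fto -/- and Fto +/+ array, with replicate numbers, the mean as a line and the SD as a bar (n = 4 each). S100a4, Postn and Fbln1 are higher and Fn1 is lower in every Fto -/- array, while C3, Fap, Tnc and Lum overlap.

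Of the 8 structural matrix genes, 0 passed in limma, and the median difference was 0.21. An unadjusted p under 0.05 was found for 2 (25%), against 19% of all tested probes. Lum encodes lumican, a small leucine-rich proteoglycan that spaces collagen fibrils. Lum had levels of 6.35, 5.43, 6.09 and 5.93 in the Fto -/- samples, against 5.87, 4.74, 5.45 and 3.99 in the Fto +/+ samples. Fto +/+ replicates 1 and 3 lay within the Fto -/- range, and replicates 2 and 4 lay below it. The log2 difference of 0.93 (SE 0.39, adjusted p = 0.24) was the largest of the 31 and became 0.59 without Fto +/+ replicate 4.

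Fbln1 encodes fibulin-1, which binds fibronectin and elastic fibres. Fbln1 had levels of 5.07, 4.79, 4.83 and 4.82 in the Fto -/- samples, against 4.64, 4.16, 4.57 and 4.11 in the Fto +/+ samples. Every Fto -/- array lay above every Fto +/+ array, and the Fto +/+ arrays split into replicates 1 and 3 above and 2 and 4 below. The log2 difference was 0.50 (SE 0.15, adjusted p = 0.122) and a second probe gave 0.53 (SE 0.28, adjusted p = 0.342).

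Dcn encodes decorin, the best-known proteoglycan of fibroblasts. Its level was 8.74, 8.57, 8.71 and 8.67 in the Fto -/- samples, against 8.85, 8.68, 8.98 and 8.25 in the Fto +/+ samples. The Fto -/- samples fell inside the Fto +/+ range, and the difference was -0.01 with a 95% interval of -0.37 to 0.34. Decorin and lumican, related proteoglycans encoded on the same chromosome, 10, thus had differences of -0.01 and 0.93. Without Fto +/+ replicate 4, the lowest array for both, these were -0.16 and 0.59. The difference between the genes was not tested.

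Pcolce encodes an enhancer of procollagen cleavage and had levels of 7.52, 7.16, 7.39 and 7.35 in the Fto -/- samples, against 7.39, 6.67, 7.17 and 6.45 in the Fto +/+ samples (0.43, 95% interval -0.04 to 0.90). The other structural genes lay nearer to 0. Dpt, which encodes dermatopontin, differed by 0.24 (-0.46 to 0.95), and Tnxb, which encodes tenascin-X, by 0.17 (-0.14 to 0.49). Mfap5, a microfibril protein gene, differed by 0.09 (-0.36 to 0.53), and Ccdc80, which encodes a secreted matrix protein, by -0.11 (-0.38 to 0.16). A second Ccdc80 probe differed by -0.25. Dpt had 1.39 on Fto +/+ replicate 4, against 2.32 to 2.93 on the other Fto +/+ arrays, and its difference without that array was -0.08.

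Of the 8 surface receptors and enzymes, 0 passed in limma, and the median difference was 0.31. An unadjusted p under 0.05 was found for 1 (12.5%), Fap, against 19% of all tested probes. Pdgfra had levels of 2.79, 2.22, 2.50 and 2.43 in the Fto -/- samples, against 2.46, 1.90, 2.47 and 1.47 in the Fto +/+ samples. The genotypes overlapped, and the log2 difference of 0.41 (95% interval -0.13 to 0.95, adjusted p = 0.382) became 0.21 without Fto +/+ replicate 4. Pdgfrb, the partner receptor that pericytes and smooth muscle also carry, had levels of 3.53, 3.67, 3.80 and 3.70 in the Fto -/- samples, against 3.99, 3.34, 3.66 and 4.00 in the Fto +/+ samples. Its Fto -/- samples lay inside the Fto +/+ range and the difference was -0.07 (-0.43 to 0.29).

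Fap encodes fibroblast activation protein, a serine protease of the cell surface. Fap had levels of 3.73, 3.07, 3.37 and 3.91 in the Fto -/- samples, against 3.20, 2.57, 2.94 and 2.02 in the Fto +/+ samples. Only Fto -/- replicate 2 fell below the highest Fto +/+ sample, replicate 1. The difference was 0.84 (SE 0.28, adjusted p = 0.157), 0.62 without Fto +/+ replicate 4. Dpp4, of the same protease family, was measured above background on 3 Fto +/+ arrays and differed by 0.41 (95% interval -0.17 to 0.99).

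Cd34 encodes a sialomucin of fibroblasts, endothelium and blood progenitors. Its brighter probe had levels of 6.16, 5.70, 5.92 and 5.95 in the Fto -/- samples, against 5.96, 5.64, 6.11 and 5.40 in the Fto +/+ samples. The genotypes overlapped (0.15, 95% interval -0.24 to 0.54). The dimmer probe differed by 0.55 (SE 0.15, adjusted p = 0.113) without overlap, so the 2 probes of Cd34 gave different sizes. Ly6a, the gene of Sca-1, differed by 0.34 (-0.15 to 0.82), and its probe may also read the closely related genes of the Ly6 family. The ferritin receptor gene Scara5 differed by 0.28 (-0.51 to 1.07) and the membrane dipeptidase gene Dpep1 by 0.19 (-0.35 to 0.73).

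The other secreted products had positive differences in 6 of 6 genes, beside 47.5% of all tested probes, with 0 passing in limma. An unadjusted p under 0.05 was found for 1 (16.7%), against 19% of all tested probes. C3 encodes the central complement component. C3 had levels of 7.14, 6.69, 7.20 and 7.20 in the Fto -/- samples, against 6.57, 6.23, 6.87 and 6.30 in the Fto +/+ samples. Replicate 2 of Fto -/- lay below Fto +/+ replicate 3, and the other 3 Fto -/- samples lay above all Fto +/+ samples. The log2 difference was 0.57 (SE 0.18, adjusted p = 0.142), and a second probe gave 0.59 (SE 0.19, adjusted p = 0.151).

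Pi16 encodes a secreted peptidase inhibitor that marks the reservoir population of fibroblasts. Pi16 had levels of 8.10, 7.78, 7.74 and 7.93 in the Fto -/- samples, against 7.70, 7.69, 8.06 and 7.51 in the Fto +/+ samples. The highest Fto +/+ sample, replicate 3, lay above 3 of the Fto -/- samples, and the difference was 0.15 (95% interval -0.17 to 0.46). Serpinf1, which encodes the anti-angiogenic factor PEDF, differed by 0.30 (-0.28 to 0.89), and Islr, the gene of the mesenchymal protein meflin, by 0.27 (-0.02 to 0.57). The serine protease gene Htra3 differed by 0.22 (-0.01 to 0.45). Clec3b, which encodes the plasminogen-binding protein tetranectin, differed by 0.06, with an interval as wide as -0.76 to 0.88.

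The fibroblast genes varied more among the Fto +/+ samples than among the Fto -/- samples. Over the 31 genes the median SD was 0.16 in Fto -/- and 0.32 in Fto +/+ samples, and 26 of 31 (83.9%) had the larger SD in Fto +/+. Over all tested probes the medians were 0.18 and 0.21 and the share was 57%. Fto +/+ replicate 4 was the lowest of the 8 arrays for 18 of the 31 genes, and Fto -/- replicate 1 the highest for 14. Without Fto +/+ replicate 4 the median SD in Fto +/+ samples was 0.25, beside 0.15 over all tested probes.

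Signs and sizes within the list also moved with that array, which had the lowest mean level of the list (-0.44). The median difference changed little, from 0.22 to 0.20, but it does not show how far single genes or the mean moved. The mean of the 31 genes, each centred over the 8 arrays, was 0.25, -0.04, 0.13 and 0.17 in the Fto -/- samples, against 0.06, -0.19, 0.06 and -0.44 in the Fto +/+ samples. From all 8 arrays the median difference was 0.22, with 25 genes positive and 6 negative. Leaving out single arrays gave medians from 0.18 (Fto -/- replicate 1) to 0.31 (Fto +/+ replicate 3). Without Fto +/+ replicate 4 the median was 0.20, with 20 genes positive and 11 negative. Scara5 then differed by -0.07, Clec3b by -0.22, Dpep1 by -0.03, Mfap5 by -0.11, Thbs2 by -0.13 and Pdgfrb by 0.01, like Dpt each with the opposite sign to the value from all 8 arrays. S100a4 (0.83), Tnc (0.82), Postn (0.38), C3 (0.50), Fbln1 (0.42) and Fn1 (-0.44) kept their sign.

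**Figure D3:**
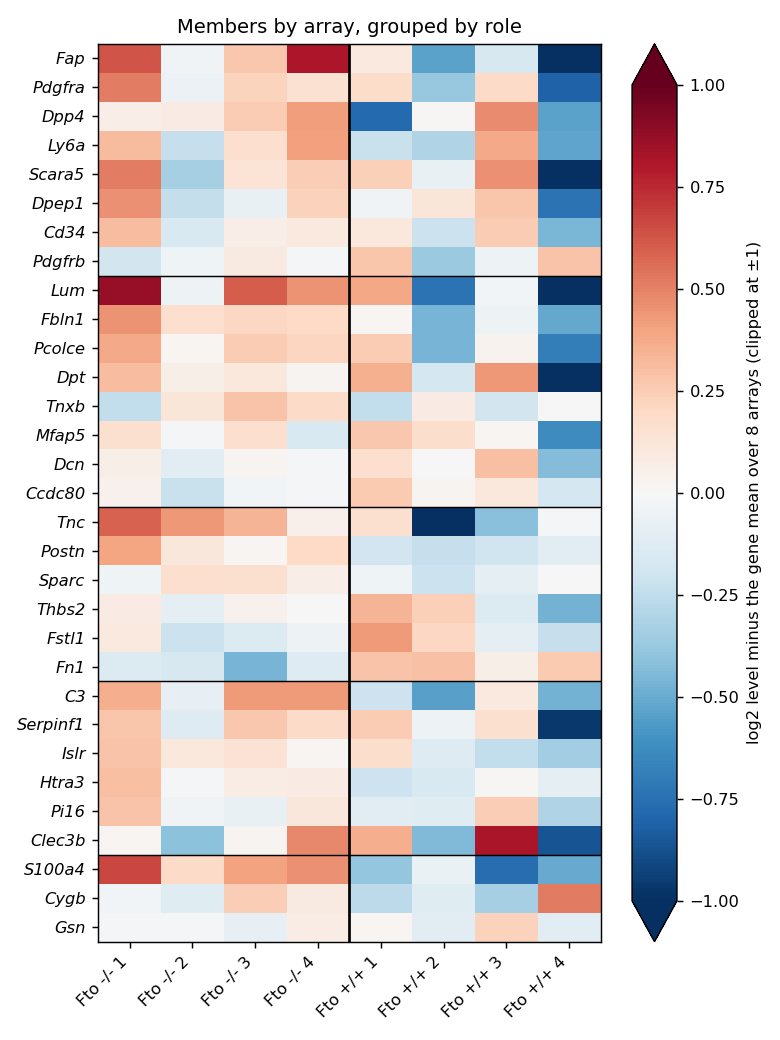
Level of each tested fibroblast gene in each array, as the log2 level minus the gene's mean over the 8 arrays (colour, clipped at 1 in either direction), with Fto -/- arrays left of Fto +/+ arrays and genes grouped by role. Fto +/+ replicate 4, the last column, is the lowest array for 18 of the 31 genes.

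**Figure D4:**
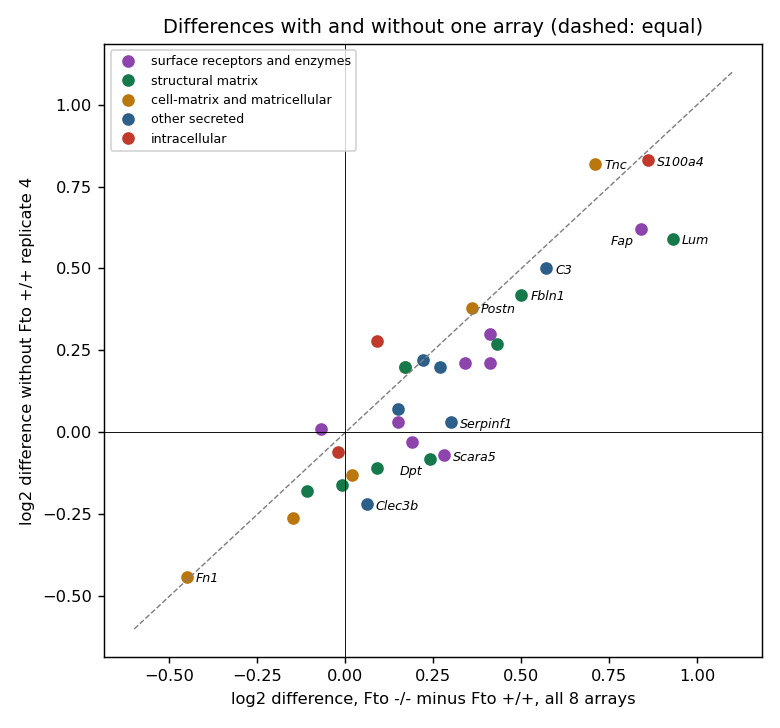
Log2 difference between Fto -/- and Fto +/+ aortas from all 8 arrays (horizontal axis) against the same difference without Fto +/+ replicate 4 (vertical axis), 1 point for each of the 31 genes, coloured by role. Lum lies at 0.93 with all arrays and 0.59 without that array, and Clec3b at 0.06 and -0.22, while Fn1 and Postn stay near the dashed line of equality.

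Position on the slide was uneven between genotypes, since Fto -/- replicates 1, 2 and 3 shared row 1 with Fto +/+ replicate 1. The median difference of the 31 genes was 0.18 with slide row as a block, 0.05 within row 1 and 0.30 within row 2. Row 2 holds 1 Fto -/- array and 3 Fto +/+ arrays, among them replicate 4, the lowest array for 18 of the 31 genes. The part of that array in the gap between the rows was not tested. Lum differed by 0.09 within row 1 and by 1.20 within row 2, and Fap by 0.19 and 1.40. Without the 5 arrays with either Rag1 probe above background, which leaves 1 Fto -/- and 2 Fto +/+ samples, the median was -0.15, and 10 genes were positive and 20 negative. Those 5 include Fto +/+ replicate 4. The 1 Fto -/- sample left is replicate 2, which had the lowest list level of its genotype (-0.04), so this median rests on that sample. With only the other 4 left out, which leaves 1 Fto -/- and 3 Fto +/+ samples, the median was 0.09, and 18 genes were positive and 12 negative. Lum differed by -0.23 without the 5 arrays and by 0.32 without the 4, and C3 by -0.03 and 0.11. Postn (0.30 and 0.27), Fn1 (-0.33 and -0.36) and Fbln1 (0.18 and 0.35) kept their sign in both.

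A further 51 genes of fibroblasts and their matrix, mainly collagens, collagen-modifying enzymes and growth factors, gave 0 passing of 50 tested in limma, with 10 (20%) at an unadjusted p under 0.05, 6 higher and 4 lower. With array weights 4 were higher and 2 lower. Their median difference was 0.09. Thy1, the gene of the surface glycoprotein CD90, differed by 0.73 (SE 0.19, adjusted p = 0.0936), and Col6a3, which encodes a chain of collagen VI, by 0.32 (SE 0.09, adjusted p = 0.107). The level of this list lay between -0.03 and 0.17 in the Fto -/- arrays and between -0.26 and 0.16 in the Fto +/+ arrays.

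Markers of other cells moved across the same arrays. Macrophage genes, with 12 of 13 tested, had levels of 0.70, -0.34, 0.19 and 0.29 in the Fto -/- arrays, against 0.10, -0.04, 0.18 and -1.09 in the Fto +/+ arrays, so replicate 4 of Fto +/+ was the lowest there too. T cell genes, 9 of 12 tested, ran from -1.33 to 1.87 in the Fto -/- arrays and from -1.80 to 1.68 in the Fto +/+ arrays. White adipocyte genes, 9 of 10 tested, ran from -0.18 to 1.06 in the Fto -/- and from -1.48 to 0.72 in the Fto +/+ arrays, and brown adipocyte genes, 8 of 9 tested, from -0.28 to 1.40 and from -1.20 to -0.11. Of these 4 lists 0 genes passed in limma, with 1, 1, 1 and 5 at an unadjusted p under 0.05. The genes of smallest p were Ptprc (0.79, adjusted p = 0.245) and Itgam (0.45, 0.367) for macrophages and Cd3g (2.54, 0.182) and Cd3d (2.58, 0.279) for T cells. They were Plin1 (1.01, adjusted p = 0.235) and Lpl (1.14, 0.277) for white and Cidea (1.88, 0.0884) and Fabp3 (1.19, 0.0923) for brown adipocytes. Unlike the macrophage list, Itgam was highest on Fto +/+ replicate 4 (6.57), and Ptprc was lowest on Fto +/+ replicate 3 (-3.24). Cd3g was well above background on 4 Fto -/- arrays and 1 Fto +/+ array, and Cd3d on 3 and 1. The sizes for Cd3g and Cd3d therefore rest in part on background values.

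Smooth muscle genes, 14 of 14 tested, ran from -0.20 to 0.04 in the Fto -/- and from 0.03 to 0.22 in the Fto +/+ arrays, with replicate 4 the highest of the Fto +/+ arrays. The tropomyosin genes Tpm1 (-0.65, adjusted p = 0.0463) and Tpm2 (-0.53, adjusted p = 0.0465) fell, and 12 did not pass. Each is given by the brightest of its tested probes, 5 for Tpm1 and 2 for Tpm2. Of the 14 differences, 5 were positive and 9 negative, with a median of -0.28. At an unadjusted p under 0.05 there were 7 of 14 (50%), 1 higher and 6 lower, against 19% of all tested probes. The genotypes did not overlap for 6 of 14 (42.9%), all lower, against 12.1% of all tested probes. Endothelial genes (0 of 12 passing in limma, 3 at an unadjusted p under 0.05) ran from -0.30 to 0.20 and from -0.08 to 0.36, and pericyte genes (0 of 6, 2) from -0.23 to 0.16 and from -0.10 to 0.11. Of the mesothelial markers 3 of 9 were tested and 5 were above background on 0 arrays, and of the Schwann cell markers 4 of 7 were tested and 3 were above background on 0 arrays. The 4 tested Schwann genes ran from 0.06 to 0.37 in the Fto -/- and from -0.44 to -0.06 in the Fto +/+ arrays, with 0 passing in limma and 2 at an unadjusted p under 0.05. The genes of smallest p were Erg (0.36, adjusted p = 0.159) and Esam (-0.42, 0.201) for endothelium and Notch3 (-0.71, 0.123) and Higd1b (0.57, 0.212) for pericytes. S100b (0.71, adjusted p = 0.198) is named for Schwann cells, and Msln (-1.32, 0.425) and Krt18 (0.24, 0.560) for mesothelium. The part of these cells in the fibroblast values was not tested.

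**Figure D5:**
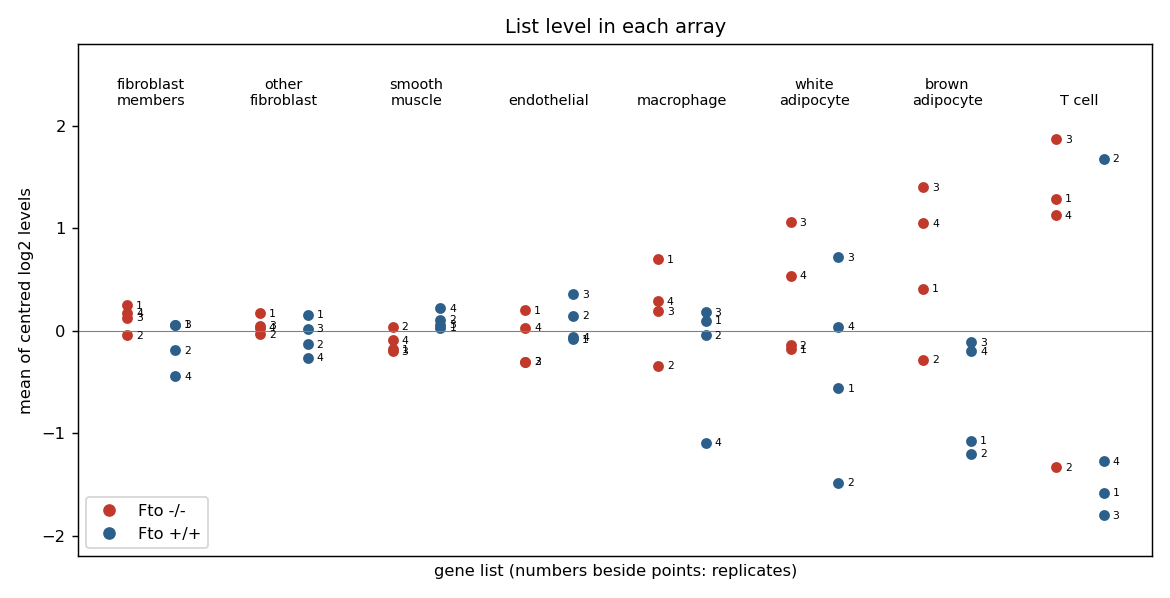
Level of each gene list in each array (vertical axis, mean of the tested genes after each was centred over the 8 arrays), Fto -/- left of Fto +/+, with replicate numbers. Fto +/+ replicate 4 is the lowest Fto +/+ point for the 31 fibroblast genes (-0.44) and for macrophage genes (-1.09), and the highest for smooth muscle genes (0.22).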

How the data were processed

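Single-colour arrays of 8 aorta samples were read from the authors' scanner output, whose deposited columns give intensity for every spot. Per the file headers, Agilent Feature Extraction 11.0.1.1 subtracted the background; no scaling between arrays had been applied. The authors' series table holds deposited log2 values centred per probe, which tracked the scanner values (correlations 0.96 to 0.98 over 22233 probes); how it was normalised is not known here. Control spots were left out, outlier spots set aside, spots of a probe averaged, and log2 values scaled to the 75th percentile of the array. Fto -/- was compared with Fto +/+ in limma 3.58.1 (R 4.3.3), over 25292 probes. In simulated data for this comparison (25269 probes), 58% of log2 changes of 1 and 91% of changes of 2 were recovered. The fibroblast genes differed by -0.45 to 0.93, so these rates do not cover changes of their size. Probes were simulated independently, without array effects shared between probes. Of 55681 probes, 28331 were named through RefSeq transcripts. The headers place all arrays on 1 slide with 1 scan. The number of arrays limits the precision.

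The members, lists and tests were chosen with earlier results of these data known. All members and Fto are named, with values by sample for those at an unadjusted p under 0.05 and for Pdgfra, Pdgfrb, Dcn, Lum, Pi16, Cd34, Fn1 and Postn; those of Pcolce and Sparc were added after they were seen. Of other lists, up to 4 passing genes, or the 2 of smallest p, are named where the list is described, apart from a gene that is not reported here. Same-numbered samples share only a number (correlations of their deviations 0.15, -0.02, -0.02 and -0.04). Alternatives were other scalings, filters, blocks, weights, probe rules and left-out arrays; normexp (offset 50) used the median spot signal in place of the mean signal.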

Additional observations from a re-analysis of the deposited data

Results flagged for a closer look

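A sample far from the other 3 of its genotype was found in 4 of the 62 groups of 4 examined, where chance gives about 5% of groups. Fbln1 was 5.07 in Fto -/- replicate 1, against 4.79 to 4.83 in the other Fto -/- samples. Fn1 was 6.81 in Fto -/- replicate 3, against 7.12 to 7.15, and 7.34 in Fto +/+ replicate 3, against 7.54 to 7.57. C3 was 6.69 in Fto -/- replicate 2, against 7.14 to 7.2.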

How the results depend on the processing

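Over 23 other settings, 29 of the 31 fibroblast genes kept their side of the threshold in every setting run, and S100a4 and Postn changed. S100a4 passed in 8 of the 23 and Postn in 1. The 29 genes did not pass with all 8 arrays either. Many fits with fewer arrays or with a block called fewer probes, so that these genes stayed there was partly set in advance. The count of fibroblast genes that were higher was 0 with no filter on dim probes, with slide row as a block, within slide row 1 and row 2, without the 5 arrays with either Rag1 probe above background, without the 4 with the brighter one and with the mean over probes, against 1 from all 8 arrays, and 2 with array weights. It ranged from 0 to 1 when single arrays were left out, and 0 were lower in every setting. With the replicate number as a block, which does not pair these samples, 0 fibroblast genes were higher, S100a4 had an adjusted p of 0.112, and 90 probes of the whole array were higher and 42 lower, against 213 and 206. Whole-array counts were 61 higher and 35 lower with no filter, 33 and 13 with slide row as a block, 960 and 1093 with array weights, 0 and 0 within row 1, without the 5 Rag1 arrays and without the 4, and 1 and 0 within row 2. Leaving out single arrays gave 55 (without Fto -/- replicate 4) to 499 (without Fto +/+ replicate 4) higher and 46 to 387 lower. With the percentile over detected probes, 273 were higher and 153 lower. Of the other fibroblast genes, 4 were higher and 2 lower with array weights. The median over fibroblast genes was -0.15 without the 5 Rag1 arrays, which include Fto +/+ replicate 4, and 0.09 without the 4. Both leave only replicate 2 of the Fto -/- arrays, the lowest of its genotype for this list. Fto differed by -2.72 without the 5 Rag1 arrays, -2.66 without the 4, -3.02 within row 1 and -3.33 within row 2, each no longer past the threshold with so few arrays. Apart from these constructions with fewer arrays, the cause of the changes was not tested. Rows within the slide, the percentile over probe means and the set of 4 Rag1 arrays were chosen after seeing the data. Dpp4 was measured nearest to background, and Tcf21 could not be measured.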
